A study of Mus musculus with 8 samples.

Results

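The microglia genes described here are 10 genes used as markers of microglia, the resident macrophages of the brain: Csf1r, Cx3cr1, P2ry12, Tmem119, Aif1, C1qa, C1qb, C1qc, Trem2 and Tyrobp. They were taken by gene name from a table of read counts for 34299 genes, all 10 were found, and none had 0 counts in any library. The study measured RNA of whole mouse brain in 8 bulk RNA-seq libraries: 3 of wild-type (WT) fetuses at gestation day 15, 3 of Cav1 knockout (KO) fetuses of the same day, and 2 of Cav1 KO brains at week 70. Cav1 encodes caveolin 1, the coat protein of the membrane pits called caveolae. Every KO library, fetal or aged, carries the Cav1 knockout, and the labels name no other allele, treatment or strain. No WT library of week 70 was analysed here, so the aged brains are compared with fetal brains only.

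Microglia arise from yolk sac progenitors and enter the brain during fetal life. Their survival depends on the receptor Csf1r and its ligands, neurons signal to them through the chemokine receptor Cx3cr1, and P2ry12 and Tmem119 are surface proteins that mark them in their resting state. They are the main source of the complement protein C1q in the brain, which tags material and synapses for removal, and the receptor Trem2 signals through the adaptor Tyrobp to drive phagocytosis. Several of the 10 genes are shared with other macrophages, including those at the brain's borders, and Tmem119 is also known as a gene of bone-forming cells.

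Counts of Cav1 were 367, 218 and 329 in the WT libraries, 0, 3 and 1 in the fetal KO libraries, and 1 and 5 in the aged KO libraries, so the targeted gene matched the labels. Total counts were 19414747 to 20833397 in WT, 14110031 to 15245283 in fetal KO and 18924304 to 20203233 in aged KO. Depth thus separated the fetal genotypes completely, no batch is recorded, and a batch could not be told apart from genotype. WT replicate 1 stood apart in connective tissue genes: its summed level over 8 fibroblast and meningeal genes was 4551 normalised CPM (counts relative to library size, scaled by edgeR's TMM factors throughout), against 338 and 558 in the other WT libraries. Its sum over 10 cartilage and bone genes, a list chosen after values were seen, was 602 CPM against 108 and 98.7. Results that rest on this library are given with and without it. The labels state 3 biological replicates for the fetal brains; for the aged brains they do not say that the libraries are separate animals, so their spread may be technical.

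Promoters of some members were searched for short motifs. No window was searched for Csf1r, Tmem119, C1qa and Tyrobp, so the motif counts do not cover them. RefSeq windows of GRCm38.p6 were searched for 6 of the 10 (Cx3cr1, P2ry12, Aif1, C1qb, C1qc and Trem2). Of these, 4 are printed: C1qb, C1qc and Trem2 as windows that hold GAGGAA, the core letters bound by PU.1-type ETS factors, and Cx3cr1 as one that does not. All 4 genes rose with age, as the other members did. Aif1, which also holds the motif, rose least, by 1.65 on the log2 scale. Cx3cr1 and P2ry12, whose windows lack it, rose by 4.22 and 3.06. A link between the motif and the change with age was not tested. Each window is the 250 bases before the RefSeq start, 5′ to 3′ on the gene's strand, with GAGGAA or its reverse complement TTCCTC in capitals. The bases after the RefSeq starts of C1qb and P2ry12 were not found near the 5′ end of any GENCODE transcript of these genes.
C1qb, chr4:136886201-136886450, minus strand: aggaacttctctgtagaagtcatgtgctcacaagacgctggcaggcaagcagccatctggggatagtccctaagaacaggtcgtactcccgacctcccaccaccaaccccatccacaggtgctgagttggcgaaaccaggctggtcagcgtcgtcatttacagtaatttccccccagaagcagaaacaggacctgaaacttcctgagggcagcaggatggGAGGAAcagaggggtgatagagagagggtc
C1qc, chr4:136892915-136893164, minus strand: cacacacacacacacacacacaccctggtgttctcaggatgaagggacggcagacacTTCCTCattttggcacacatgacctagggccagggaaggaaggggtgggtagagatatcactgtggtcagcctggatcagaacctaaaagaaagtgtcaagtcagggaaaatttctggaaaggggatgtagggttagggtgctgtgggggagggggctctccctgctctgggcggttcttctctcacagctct
Trem2, chr17:48346151-48346400, plus strand: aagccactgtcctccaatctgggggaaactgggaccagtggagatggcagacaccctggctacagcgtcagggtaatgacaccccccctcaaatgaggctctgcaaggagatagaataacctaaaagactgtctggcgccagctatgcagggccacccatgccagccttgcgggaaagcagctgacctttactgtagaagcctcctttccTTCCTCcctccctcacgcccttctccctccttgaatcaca
Cx3cr1, chr9:120068297-120068546, minus strand: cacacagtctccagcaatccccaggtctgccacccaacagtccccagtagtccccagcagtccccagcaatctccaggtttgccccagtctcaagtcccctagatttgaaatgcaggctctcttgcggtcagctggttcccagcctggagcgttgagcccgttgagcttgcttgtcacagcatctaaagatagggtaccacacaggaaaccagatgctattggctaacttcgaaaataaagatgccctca
GAGGAA on either strand was found in 4 of the 6 members' windows, at -30 to -25 from the start in C1qb, -40 to -35 in Trem2, -193 to -188 in C1qc and -7 to -2 in Aif1. Of all 32851 windows of that length, 23.25% hold it. GGAA and GAAA separated by any 2 bases, the composite element bound by ETS and IRF factors together, was in 0 of the 6 windows (2.3% of all), and TATAAA in 0 of the 6 (12.37% of all). Both strands were searched, and a match of the first motif can overlap one of the second. Such matches are a description of letters, not of binding.

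At day 15 the fetal KO brains differed from WT in opposite directions among the microglia genes. Csf1r and Cx3cr1 transcripts were 3.44-fold and 2.23-fold lower in KO and Tyrobp was 2.88-fold higher, while the 3 C1q genes and Trem2 did not pass the test. P2ry12 was called higher and Tmem119 lower, and both calls depended on how the data were handled. In all, 5 of the 10 genes were called at an adjusted p under 0.05 by edgeR's quasi-likelihood test with Benjamini-Hochberg adjustment, 2 higher and 3 lower, and the median of their log2 fold changes was -0.01. Of all 19147 genes tested, 62.6% were called (30.1% higher and 32.5% lower) and the median was 0.03, so the members' share was near the background. In bulk RNA, fewer cells of a type and less RNA per cell cannot be told apart.

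**Figure D1:**
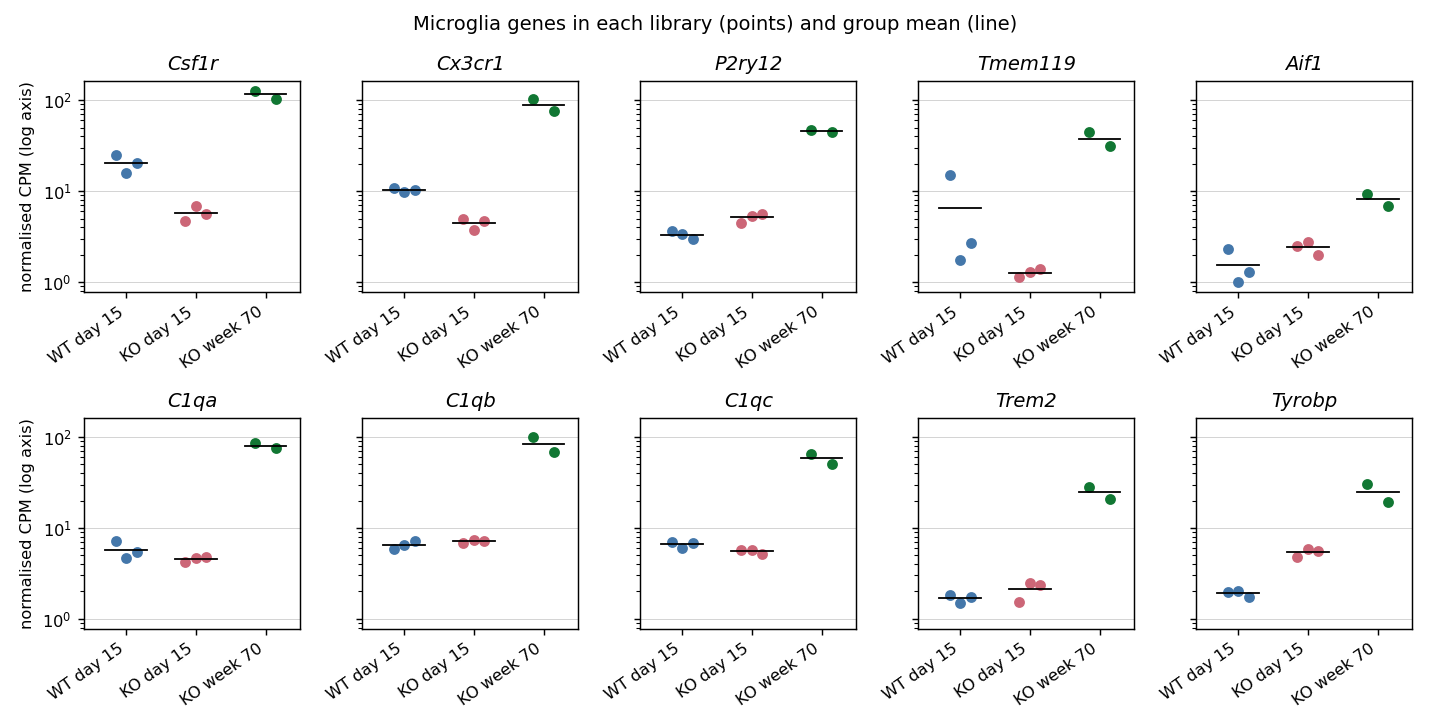
Normalised CPM (log axis) of each microglia gene in every library (points) with the group mean (line); 3 WT and 3 KO libraries of day 15 and 2 KO libraries of week 70. The aged KO libraries lie above all fetal libraries for each of the 10 genes, and among the fetal libraries Csf1r and Cx3cr1 are lower and Tyrobp higher in KO.

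Among the receptors, Csf1r, the receptor for CSF1 and IL-34, reached 531, 320 and 403 counts in the WT libraries and 77, 125 and 96 in those of fetal KO. These are 20.3 ± 4.42 and 5.72 ± 1.15 normalised CPM (SD, n = 3 each). Every KO library was below every WT library, and the log2 fold change was -1.78 (SE 0.18, edgeR adjusted p = 1.19e-05). Cx3cr1, the receptor for the neuronal chemokine fractalkine, was counted 234, 195 and 204 times in WT and 82, 68 and 82 times in KO. That is 10.3 ± 0.603 against 4.50 ± 0.632 CPM (SD, n = 3 each), again without overlap, and the log2 fold change was -1.16 (SE 0.15, edgeR adjusted p = 5.58e-05). P2ry12, the ADP receptor that guides microglial processes, was counted 79, 67 and 59 times in WT and 74, 97 and 97 times in KO. Normalised for depth these were 3.33 ± 0.364 and 5.16 ± 0.601 CPM (SD, n = 3 each), the groups did not overlap, and the log2 fold change was 0.67 (SE 0.18, edgeR adjusted p = 0.00767).

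Tmem119, the transmembrane protein used to tell microglia from other macrophages, was counted 324, 35 and 53 times in WT and 19, 23 and 24 times in KO. The first WT library alone held most of the WT counts, and it is the one high in bone genes: Tmem119 was at 15.1, 1.75 and 2.66 CPM in the WT libraries and at 1.15, 1.28 and 1.39 CPM in KO. The log2 fold change was -2.30 (SE 0.71, edgeR adjusted p = 0.0157) and was -0.77 (adjusted p = 0.0447), still called, without that library. Without KO replicate 1 it was -2.25 (adjusted p = 0.0507) and without KO replicate 2 -2.32 (adjusted p = 0.0542), as large but not called. The part of bone-forming cells in the Tmem119 counts was not tested. Aif1, the calcium-binding protein stained as Iba1, was counted 49, 20 and 26 times in WT and 41, 50 and 34 times in KO. Its groups overlapped and its log2 fold change of 0.69 (SE 0.31, edgeR adjusted p = 0.0746) did not pass, but without WT replicate 1 it was 1.08 (adjusted p = 0.00851), and with upper-quartile scaling, which raised the all-gene median by 0.17, it was 0.86 (adjusted p = 0.0328).

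The subunits of C1q, whose A, B and C chains form the trimers of the complete protein, showed no called difference between genotypes. C1qa was counted 155, 93 and 107 times in WT and 69, 83 and 82 times in KO (log2 fold change -0.31, SE 0.19, edgeR adjusted p = 0.182). C1qb was counted 124, 129 and 142 times in WT and 114, 133 and 125 times in KO (log2 fold change 0.19, SE 0.14, edgeR adjusted p = 0.258). With upper-quartile scaling C1qb was at 0.37 and called (adjusted p = 0.0425). C1qc was counted 148, 121 and 135 times in WT and 94, 102 and 90 times in KO (log2 fold change -0.21, SE 0.14, edgeR adjusted p = 0.216), although its normalised CPM did not overlap between the groups. In all, 6 of the 10 members had no overlap between the fetal groups in normalised CPM, against 68.4% of all genes tested.

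Of the receptor Trem2 and its adaptor Tyrobp, the adaptor was called. Trem2 was counted 39, 30 and 35 times in WT and 25, 45 and 41 times in KO; the groups overlapped (log2 fold change 0.37, SE 0.26, edgeR adjusted p = 0.224). Tyrobp was counted 42, 41 and 35 times in WT and 79, 105 and 96 times in KO, which is 1.92 ± 0.148 against 5.39 ± 0.544 CPM (SD, n = 3 each). Every KO library was above every WT library, and the log2 fold change was 1.53 (SE 0.19, edgeR adjusted p = 4.06e-05). Tyrobp counts per Csf1r count, a ratio that library scaling does not touch, were 0.0791, 0.128 and 0.0868 in WT and 1.03, 0.84 and 1 in fetal KO. Tyrobp counts per Trem2 count were 1.08, 1.37 and 1 in WT and 3.16, 2.33 and 2.34 in KO. Neither ratio overlapped between the fetal groups, which was also so for the ratios of most other pairs of members. The ratio to Csf1r sets the shortest member (564 bases) against the longest (4701 bases). The part of transcript length in it was not tested.

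Fold changes at day 15 went with transcript length and GC content over all genes, and the members differ widely in both. The rank correlation across genes, which are not independent replicates, was -0.39 with the length of the principal transcript and -0.48 with its GC content. The median log2 fold change was 0.65 over 817 protein-coding genes under 1000 bases and -0.38 over 4065 genes of 4000 to 8000 bases. It was 0.67 over 676 genes under 40% GC and -0.44 over 3048 genes of 55 to 60% GC. Tyrobp is the shortest member at 564 bases, Csf1r (4701 bases) and Cx3cr1 (4493 bases) are the longest, and P2ry12 is the poorest in GC at 38.6%. The C1q genes and Trem2 lie between 1040 and 1203 bases and between 57.4% and 59.5% GC.

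**Figure D2:**
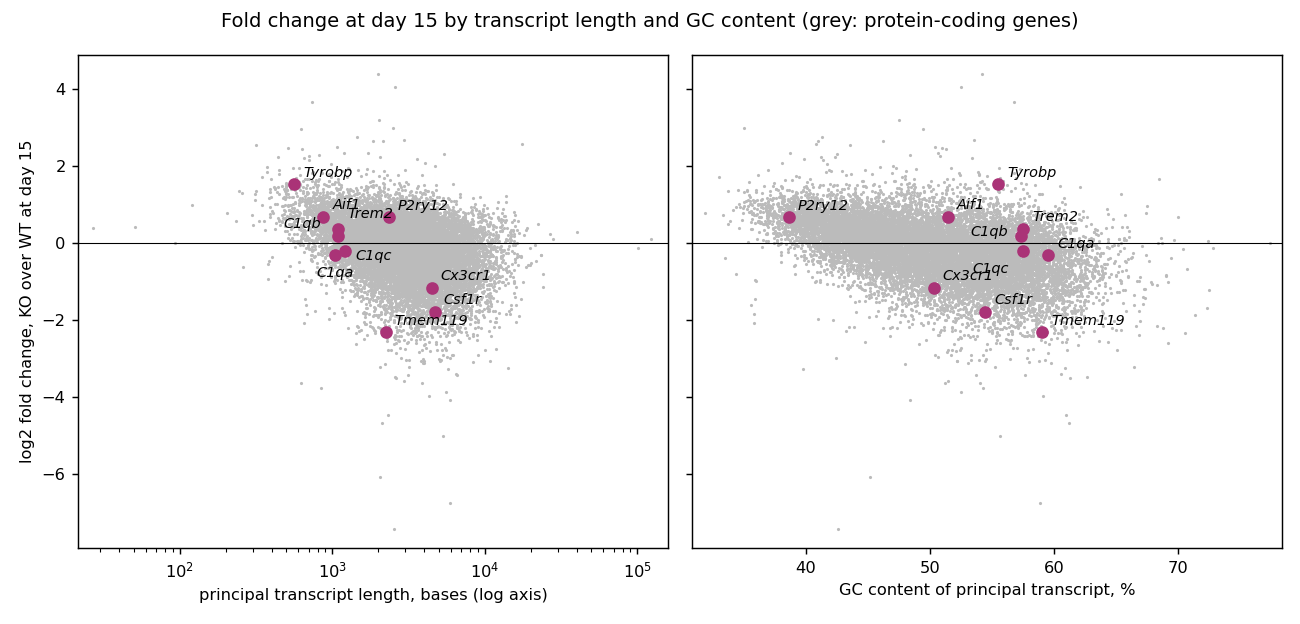
Log2 fold change of KO over WT at day 15 against principal transcript length (left, log axis) and GC content (right) for protein-coding genes (grey points) and the microglia genes (large points). Tyrobp is short and high, Csf1r and Cx3cr1 are long and low, and P2ry12 is the member poorest in GC.

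A fit with an offset for length and GC, which brought those correlations to -0.02 and 0.02, left 3 of the 10 members called. Csf1r was at -1.07 (SE 0.17, edgeR adjusted p = 4.48e-04), Cx3cr1 at -0.72 (SE 0.14, adjusted p = 0.00197) and Tyrobp at 1.25 (SE 0.19, adjusted p = 2.66e-04). P2ry12 turned to -0.21 and was not called (adjusted p = 0.338), and Tmem119 was at -1.77 (adjusted p = 0.0518), or -0.27 (adjusted p = 0.499) when WT replicate 1 was also left out. In that fit 50.2% of 19050 genes were called. The members that keep a call with the offset are therefore 2 receptors lower and 1 adaptor higher, and the spread among members, as the SD of their log2 fold changes, was 0.846 against 1.20 without the offset.

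**Figure D3:**
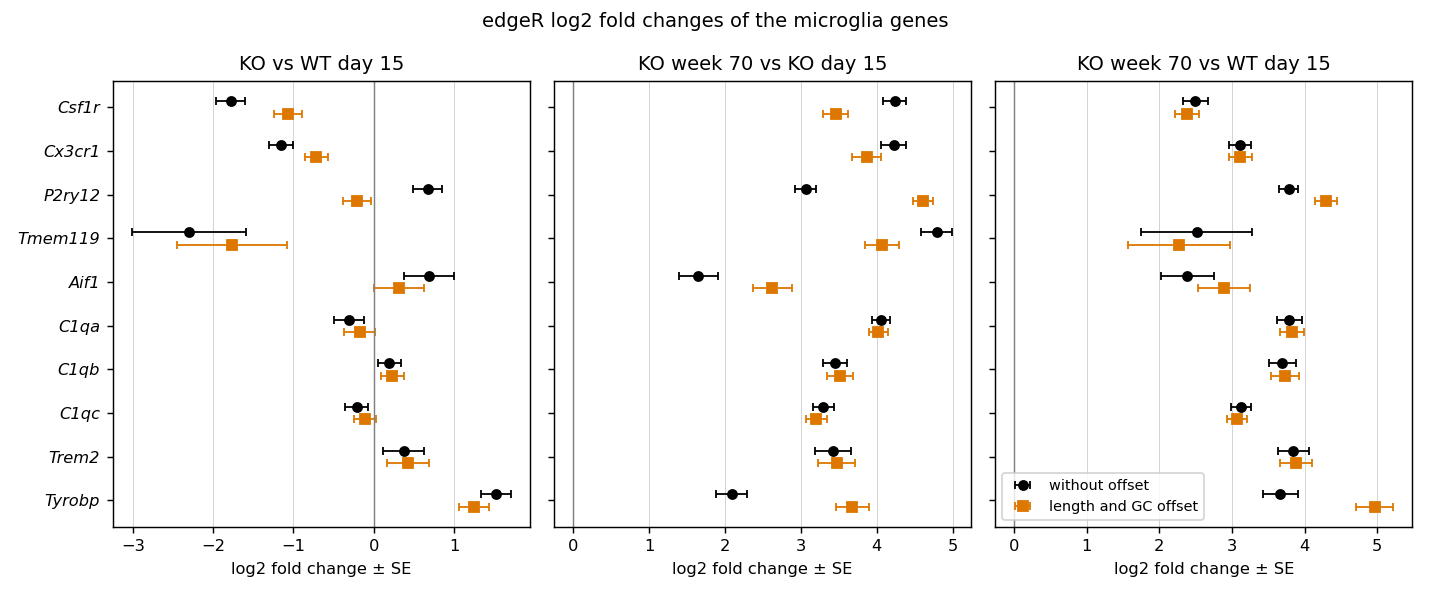
Log2 fold change (point) with its SE (bar) of each microglia gene in the 3 comparisons, without (circles) and with (squares) the length and GC offset. At day 15 the offset moves P2ry12 across 0 and leaves Csf1r, Cx3cr1 and Tyrobp apart from 0, while all 10 genes lie above 0 in both comparisons of the aged brain.

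Markers of other cell types moved with genotype too. Summed over 11 border macrophage genes, levels were 61.2 to 104 CPM in WT and 41.3 to 47.8 CPM in fetal KO. The 8 astrocyte genes summed to 592 to 671 CPM in WT and 264 to 276 CPM in KO, and the 8 fibroblast and meningeal genes to 338 or more in each WT library and 75.8 to 150 CPM in KO. The 8 endothelial genes summed to 178 to 245 CPM in WT and 61.3 to 73.7 CPM in KO, and the 8 erythroid genes to 1028 to 1309 CPM in WT and 3592 to 4414 CPM in KO. The 10 neuronal genes summed to 4458 to 4851 CPM in WT and 3816 to 3854 CPM in KO, and the 8 oligodendrocyte genes to 126 to 156 CPM and 96.8 to 106 CPM. Blood leukocyte genes were low: the 13 of 14 listed genes in the table summed to 0.703 to 1.73 CPM in WT and 0.969 to 5.04 CPM in KO, with 3 to 8 of them at 0 counts per fetal library, including the T cell gene Cd3e in 5 of the 6. For comparison, the microglia genes themselves summed to 52.5 to 80.6 CPM in WT and 40.8 to 46.2 CPM in KO. The highest WT sum was that of replicate 1, and the others were 52.5 and 60.2 CPM. Csf1r alone averaged 20.3 CPM in WT and 5.72 CPM in KO, and Tmem119 6.52 and 1.27 CPM, while the members' median log2 fold change was -0.01. The 20 further homeostatic genes overlapped, at 88.4 to 124 CPM in WT and 90.6 to 97.7 CPM in KO. The part of the other tissues and cells in the members' values was not tested.

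**Figure D4:**
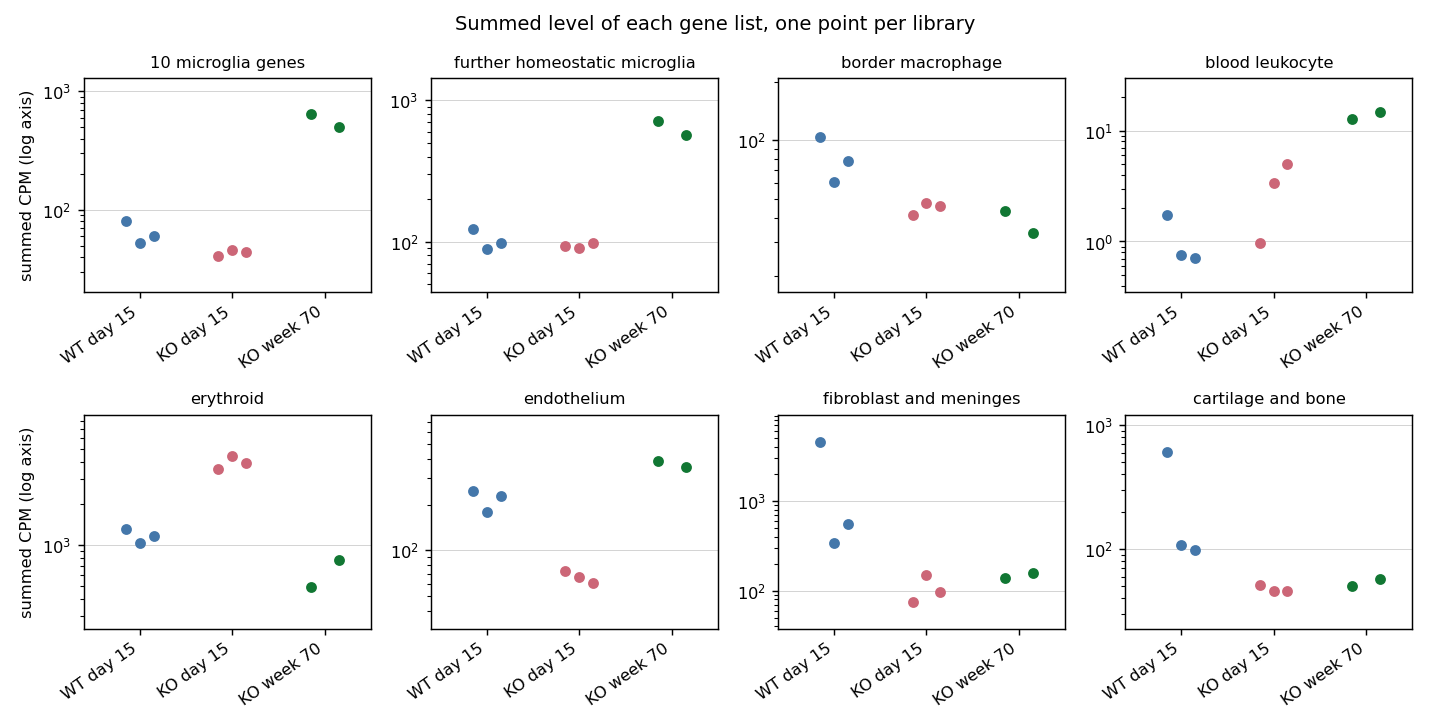
Summed normalised CPM (log axis) of each gene list in every library, 1 point per library. The microglia genes and 20 further homeostatic genes are highest in the aged brains, border macrophage genes are highest in WT fetuses, and WT replicate 1 stands apart in fibroblast, cartilage and bone genes.

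The partners of the members at day 15 were mostly lower in KO. Of 12 ligands and signal partners, 11 were tested, 0 were higher and 8 lower, with a median of -0.71. With the offset 6 were lower, with a median of -0.325. Of all genes tested, 62.6% were called in either direction and 32.5% were called lower, and 50.2% were called with the offset. Csf1, a ligand of Csf1r, was counted 340, 393 and 242 times in WT and 85, 154 and 83 times in KO, and fell by 1.32 on the log2 scale (edgeR adjusted p = 6.11e-04). Its other ligand Il34, counted 24 to 29 times in WT and 13 to 27 times in KO, was at -0.12 (edgeR adjusted p = 0.745), and at 0.05 with upper-quartile scaling. Cx3cl1, which encodes fractalkine, fell by 1.75 (adjusted p = 1.76e-06), from 557, 545 and 650 counts to 153, 161 and 115. Tgfb1 and its receptor Tgfbr2, which maintain microglial identity, each fell by 2.04 (adjusted p = 1.33e-04 and 3.08e-05). Which cells of the whole brain their transcripts came from was not tested. These 4 calls held with the offset, at -0.69 for Csf1, -1.13 for Cx3cl1, -1.40 for Tgfb1 and -1.49 for Tgfbr2. Syk, the kinase recruited by phosphorylated Tyrobp, was called at -0.65 (adjusted p = 0.0375) but was at 0.15 and not called with the offset. Its call was also lost without any 1 of WT replicates 1 and 3 and KO replicates 1 and 3 (adjusted p 0.0590 to 0.132) and with upper-quartile scaling (adjusted p = 0.111).

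Of 8 transcription factors of microglia, all tested, 1 was higher and 4 were lower, a share near that of all genes (62.6% called). Their median was -0.71. With the offset, where 50.2% of all genes were called, 2 were lower and 0 higher, with a median of -0.11. Sall1, which holds the microglial program but is also expressed in neural progenitors, fell by 1.37 (edgeR adjusted p = 2.73e-07). It was at -0.74 with the offset and still called. Mef2c, which neurons also express, was called at 0.16 (adjusted p = 0.0448) and was at -0.01 with the offset. The Mef2c call was lost without any 1 of WT replicates 1 and 3 and KO replicates 2 and 3 (adjusted p 0.0995 to 0.180). Spi1, which encodes PU.1, and its partner Irf8 were not called, at -0.43 and -0.50 (adjusted p = 0.384 and 0.115). Spi1 was at 0.09 without WT replicate 1, and Irf8 was called without KO replicate 1 at -0.75 (adjusted p = 0.0454). The count of called factors fell from 5 to 3 without WT replicate 1 or KO replicate 2.

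Of 20 further homeostatic microglia genes, 19 were tested, 7 were higher and 4 lower, with a median of 0.08. Over all genes tested, 30.1% were higher and 32.5% lower. Gpr34, a lysophospholipid receptor, was at 1.24 (edgeR adjusted p = 0.0118) and the tetraspanin Cd53 at 0.93 (adjusted p = 0.00350), but with the offset they were at 0.22 and -0.01 and not called. The lysosomal protein Laptm5 and the transporter Slco2b1 fell by 1.74 and 1.34 (adjusted p = 3.90e-06 and 3.48e-05), and were at -1.30 and -0.83 with the offset. With the offset, where 50.2% of all genes were called, 2 of the 19 were higher and 4 lower, with a median of 0.13. Of 18 activation and disease-associated genes, 17 were in the table and 10 were tested, of which 0 were higher and 3 lower, with a median of -0.05. With the offset 5 of these were lower and 0 higher, with a median of -0.64. The receptor kinase Axl and the protease Ctsd, both expressed in many cells, fell by 1.48 and 1.07 (adjusted p = 4.42e-06 and 6.32e-07), and were at -0.84 and -0.74 with the offset.

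Among 11 border macrophage genes, 7 were tested, 2 were higher and 3 lower, with a median of -0.67. Over all genes tested, 30.1% were higher and 32.5% lower. The chemokine Pf4 rose by 1.49 (edgeR adjusted p = 1.27e-04; 0.91 with the offset), while the scavenger receptor Stab1 and the mannose receptor Mrc1 fell by 1.49 and 1.09 (adjusted p = 2.04e-05 and 0.00200). With the offset Stab1 was at -0.40 (adjusted p = 0.0381) and Mrc1 at -1.08. In that fit 1 of the 7 genes was higher and 3 were lower, with a median of -0.40, where 50.2% of all genes were called. Without KO replicate 1 the count fell from 5 to 3. Of 10 complement genes acting downstream of C1q, 6 were tested, 1 was higher and 3 lower, with a median of -0.48. With the offset 0 were higher and 2 lower, with a median of -0.76. The regulators Cr1l and Cd59a were at 0.46 and -0.58 (adjusted p = 9.10e-04 and 0.0156), and at -0.08 and -1.09 with the offset; the Cd59a call was lost without WT replicate 3 (adjusted p = 0.0552) and with upper-quartile scaling (adjusted p = 0.0675). C3 was called at -3.03 (adjusted p = 0.0381) on WT counts of 20, 661 and 30 and KO counts of 25, 28 and 20, and was at 0.25 (adjusted p = 0.557) without WT replicate 2. Its call was also lost without any 1 of the KO libraries (adjusted p 0.0912 to 0.112), and the count of called complement genes fell from 4 to 2 without KO replicate 1 or KO replicate 3.

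Between fetal and aged KO brains, each of the 10 microglia genes rose. The increase ran from 3.14-fold for Aif1 and 4.25-fold for Tyrobp to 18.7-fold for Cx3cr1, 18.8-fold for Csf1r and 27.6-fold for Tmem119. All 10 were called higher (edgeR adjusted p 4.10e-10 to 1.46e-04) and their median log2 fold change was 3.43. Of all 20000 genes tested, 82% were called and 37.6% were called higher, with a median of -0.19. All 10 lay higher without overlap, against 42.3% of all genes. Genes of other cell types differed between these ages too: the summed CPM of 8 oligodendrocyte genes was 96.8 to 106 in fetal and 13643 to 13755 in aged KO, and that of 8 astrocyte genes 264 to 276 and 8045 to 8684.

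Among the receptors, Csf1r had 1939 and 1511 counts in the aged libraries (116 ± 16.7 CPM, SD, n = 2) and a log2 fold change of 4.23 (SE 0.15). Cx3cr1 had 1577 and 1100 counts (89.9 ± 19.9 CPM) and a log2 fold change of 4.22 (SE 0.16), and P2ry12 had 720 and 656 counts (46.3 ± 1.59 CPM) and one of 3.06 (SE 0.13). Both aged libraries lay far above all fetal libraries for each receptor. Tmem119, at 675 and 454 counts (37.9 ± 9.34 CPM), rose by 4.79 on the log2 scale (SE 0.21). Aif1, at 141 and 101 counts (8.13 ± 1.65 CPM), rose by 1.65 (SE 0.26).

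C1qa had 1297 and 1098 counts in the aged libraries (80.6 ± 6.94 CPM, SD, n = 2), C1qb 1525 and 983 (84.1 ± 23.2 CPM) and C1qc 988 and 741 (58.1 ± 9.94 CPM). Their log2 fold changes were 4.05 (SE 0.12), 3.45 (SE 0.16) and 3.29 (SE 0.14). As shares of the 3 genes' reads per length, C1qc took 31.3%, 29.6% and 27.9% in the fetal KO libraries and 23.7% and 23.9% in the aged ones, and C1qa took 26.6%, 27.8% and 29.4% and then 35.9% and 41.0%. Neither share overlapped between the fetal and aged KO libraries, which was also so for the count ratios of most pairs of members. C1qb took 42.0%, 42.6% and 42.8% and then 40.4% and 35.1%, likewise without overlap. In the WT fetuses C1qa took 38.6%, 29.0% and 29.8%, the first of which lies between the aged values. Trem2 had 433 and 300 counts (24.6 ± 5.56 CPM) and rose by 3.42 (SE 0.23), while Tyrobp, with 458 and 277 counts (24.6 ± 7.85 CPM), rose by 2.09 (SE 0.21). Tyrobp counts per Trem2 count were 1.06 and 0.923 in the aged KO libraries, below the 2.33 to 3.16 of fetal KO and close to the WT fetuses' 1 to 1.37.

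The length and GC offset kept all 10 calls with age, where 41% of all genes were called higher, but changed their order. With it Tyrobp was at 3.68, P2ry12 at 4.61 and Aif1 at 2.62, each higher than without, and Csf1r was at 3.46 and Tmem119 at 4.06, each lower. The SD of the 10 log2 fold changes was 0.540 with the offset and 0.979 without. Across all genes the rank correlation of this comparison with length was 0.20 and with GC content 0.29, and both were 0.03 with the offset. Of the 2 aged libraries, the first was the higher in normalised CPM for each of the 10 genes.

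Against WT fetuses, the aged KO brains again had each of the 10 genes higher, in a comparison in which age and genotype differ together and which shares its libraries with the comparisons above. All 10 were called (edgeR adjusted p 3.63e-07 to 0.0179), and their median log2 fold change was 3.39, where 78.6% of all 19465 genes were called, 36.7% higher, and the median was -0.16. None of the 10 overlapped, against 40.1% of all genes lying higher without overlap. Trem2 was 14.3-fold higher, C1qa 13.8-fold, P2ry12 13.7-fold, C1qb 12.9-fold and Tyrobp 12.7-fold (31.2-fold with the length and GC offset). Cx3cr1 was 8.63-fold higher, C1qc 8.74-fold, Csf1r 5.64-fold and Aif1 5.22-fold. Tmem119 was at 2.51 on the log2 scale (SE 0.76, edgeR adjusted p = 0.0179), at 4.08 without WT replicate 1, and at 2.24 and not called without aged KO replicate 1 (adjusted p = 0.0801).

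The order of the members was read from CPM per kilobase of transcript, since counts of genes of unequal length cannot be compared directly. In WT fetuses C1qb (5.93), C1qa (5.53) and C1qc (5.47 CPM per kilobase) stood first, followed by Csf1r (4.33), Tyrobp (3.41), Tmem119 (2.91), Cx3cr1 (2.29), Aif1 (1.75), Trem2 (1.56) and P2ry12 (1.42). Every neighbouring pair in that order overlapped between libraries. The place of Tmem119 rested on WT replicate 1 (6.75, 0.779 and 1.19 CPM per kilobase in the WT libraries); without that library it averaged 0.983 and was last, an average chosen after seeing the data. In fetal KO Tyrobp led at 9.56 CPM per kilobase, above C1qb (6.60) in every library, and C1qb was above C1qc (4.59) and C1qa (4.34), which overlapped. Aif1 (2.75), P2ry12 (2.20), Trem2 (1.96), Csf1r (1.22) and Cx3cr1 (1.001 CPM per kilobase) followed, each overlapping its neighbour, and Tmem119 (0.568) was last and apart from Cx3cr1. In the aged brains C1qa (77.5) and C1qb (77.3) led and overlapped, C1qc (48.3) and Tyrobp (43.7) followed and overlapped, and Csf1r was at 24.7, Trem2 at 22.6, Cx3cr1 at 20.01, P2ry12 at 19.8, Tmem119 at 16.9 and Aif1 at 9.29 CPM per kilobase. From Csf1r to Tmem119 each gene overlapped its neighbour, while Tyrobp lay above Csf1r and Tmem119 above Aif1 in every pair of libraries.

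The related lists mostly rose with age in KO. Over all genes tested, 82% were called with age and 37.6% were called higher, or 41% higher with the offset. All 20 further homeostatic genes were tested and all were higher, with a median of 2.60. Selplg, an adhesion ligand, had 13 to 16 counts in fetal KO and 757 and 521 in the aged libraries and rose by 5.54 (edgeR adjusted p = 2.70e-09), and the integrin Itgam rose by 4.98 (adjusted p = 1.43e-06). Of 8 transcription factors 7 were higher and 0 lower, with a median of 2.32. Cebpa rose by 3.89, Irf5 by 2.72, Spi1 by 2.72 and Irf8 by 2.29 (adjusted p 5.78e-08 to 3.83e-05). With the offset 6 of the 8 were higher, and Cebpa was at 2.82 and Spi1 at 2.05, both still called. Sall1 was called at 0.54 (adjusted p = 0.00194) and was at -0.01, not called, with the offset, and at 0.29 with upper-quartile scaling (adjusted p = 0.0506).

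Of the 11 ligands and partners tested with age, 9 were higher and 1 lower, with a median of 2.62. Of all genes, 82% were called and 37.6% were called higher. Both ligands of Csf1r rose: Csf1 by 2.35 and Il34 by 5.42 (edgeR adjusted p = 4.43e-06 and 2.68e-09), the latter to 929 and 712 counts. Cx3cl1 rose by 6.59 to 13276 and 12130 counts, and the lipid carrier Apoe by 6.02 to 45566 and 44328 counts (adjusted p = 8.06e-11 and 2.20e-10). Tgfb1 rose by 2.62, whereas the receptor Tgfbr1 fell by 1.74 (adjusted p = 1.58e-05 and 1.05e-07). With the offset, where 8 were higher and 1 lower, Csf1 was at 1.63, Cx3cl1 at 5.80, Tgfb1 at 1.65 and Tgfbr1 at -0.97, all still called. Syk was not called, at 0.22 (adjusted p = 0.513), and was at -0.03 with upper-quartile scaling.

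Activation and disease-associated genes rose with age in 10 of the 12 tested and fell in 1, with a median of 2.59. Of all genes, 82% were called and 37.6% were called higher. Cd74, the invariant chain of antigen presentation, rose by 4.31 and the glycoprotein Gpnmb by 4.001 (edgeR adjusted p = 3.15e-07 and 1.21e-04); Gpnmb was at 4.65 without fetal KO replicate 1. The growth factor Igf1 was called lower at -0.60 (adjusted p = 0.00470) and higher at 0.77 (adjusted p = 0.00115) with the offset; in 1 fit over all 8 libraries it was not called (adjusted p = 0.300). Of 10 complement genes downstream of C1q, 8 were higher and 1 lower, with a median of 1.67. C4b had 3, 0 and 0 counts in fetal KO and 833 and 1095 in the aged libraries, at least 375-fold higher against a floor of 3 counts per library, and C1ra, a protease of the C1 complex, was at least 32.6-fold higher on the same floor. Cr1l was called lower at -0.36 (adjusted p = 0.00916) and higher at 0.53 (adjusted p = 4.03e-04) with the offset.

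Border macrophage genes changed in both directions with age. Of the 10 tested, 3 were higher and 4 lower, with a median of -1.02. Over all genes tested, 82% were called and 37.6% were called higher, so most of those calls were lower. Their summed level was 33.3 to 43.4 CPM in the aged brains against 41.3 to 47.8 CPM in fetal KO. With the offset the balance turned to 4 higher and 3 lower, with a median of -0.35, where 41% of all genes were called higher. Pf4 was called lower at -1.16 (edgeR adjusted p = 0.00979) without the offset and higher at 0.85 (adjusted p = 0.0496) with it. Lyve1, a hyaluronan receptor, fell by 2.43 (edgeR adjusted p = 2.43e-04; -3.03 without aged KO replicate 1), and the transglutaminase F13a1 fell by 1.60 (adjusted p = 7.43e-05). The scavenger receptor Cd163 rose by 2.10 (adjusted p = 0.00124), or by 1.44 (adjusted p = 0.0197) without aged KO replicate 1. The 13 blood leukocyte genes in the table summed to 12.8 to 14.8 CPM in the aged brains, with at most 1 at 0 counts, beside 498 to 643 CPM for the microglia genes. Their part in the members' rise was not tested.

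Against WT fetuses the lists were counted in the same way in the aged KO brains. There 78.6% of all genes tested were called and 36.7% were called higher. All 20 further homeostatic genes were higher, as were 8 of 11 ligands and partners (1 lower), 6 of 8 transcription factors (1 lower), 10 of 12 activation genes (0 lower) and 7 of 10 complement genes (0 lower). Of 9 border macrophage genes tested, 3 were higher and 4 lower.

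The genes whose pattern over the 8 libraries was closest to the median profile of the members were Nr3c1, Map7, Irak2, Ppp1r16b, Tmbim1, Kcnq5, Baiap2 and Gpld1, of 13026 candidates. Their root mean square distance from that profile was 0.125 (Nr3c1) to 0.183 (Gpld1) in log2 CPM. Nr3c1, the glucocorticoid receptor, was at 16.5 CPM in WT fetuses, 16.1 in KO fetuses and 171 in the aged KO brains. The members themselves lay at 0.201 (C1qc) to 0.986 (Tmem119), the C1q genes and Trem2 being closer than the other 6.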

How the data were processed

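Messenger RNA of whole mouse brain was sequenced in 8 libraries after poly-A selection and random priming, per the labels' protocols. The authors deposited raw counts of reads per gene. The submitters' processing notes name FastQC, cutadapt, Trimmomatic, HISAT2, featureCounts and edgeR and the builds GRCm38 and GRCm39, without roles; the strand setting and annotation are not given in the sources used here. Without strand, reads of Csf1r and the opposite-strand gene Hmgxb3 (873 shared exon bases), of Cx3cr1 and Gm33858 (78) and of P2ry12 and Med12l (9) cannot be told apart.

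Groups came from the sample titles. Genes passing edgeR's filterByExpr were fitted in each pair of groups with edgeR 4.0.16 (R 4.3.3; TMM factors, quasi-likelihood F-test) and called at an adjusted p under 0.05 over all genes tested. All 10 members passed that filter in each comparison. Fold changes are on edgeR's log2 scale. Alternatives were DESeq2 1.42.0, scaling by RLE or by the upper quartile, filters that were absent or stricter (mean count of 10), a fit over all 8 libraries, a replicate block, each library left out, and an offset for length and GC (mgcv 1.9.3; lengths and GC of GENCODE M21 transcripts, which matched 97.3% of the 34299 identifiers). The offset without WT replicate 1 was added after seeing the data. A count of 0 allows up to 3 counts, which is 0.144 CPM in the deepest library and 0.213 CPM in the shallowest; such floors cover counting error only. The fits were tested on simulated data with few changed genes, balanced in direction, and no trend on length or GC. That test therefore does not cover the scaling or the offset under the many changes and the trend seen here.

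The members and gene lists were chosen with earlier results of these data known. Named related genes are up to 2 called genes with the largest rise and fall per list, with a mean of at least 20 counts, and 8 partners fixed by name; 1 gene that this rule names is not reported here. The nearest patterns are 8 named genes that are no member, with a mean of at least 50 counts.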

Additional observations from a re-analysis of the deposited data

How the results depend on the processing

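With age in KO, all 140 alternative values of the members kept direction and call, and against WT fetuses 149 of 150 did. At day 15, 149 of 160 did, 5 lost and 3 gained the call, and 3 reversed. For results that changed, the cause was not tested. The members called at day 15 were 3 with the length and GC offset, 3 with the replicate block and the offset together, 3 with the offset without WT replicate 1, and 4 to 6 with 1 library left out. Over all alternatives they were 3 to 7, and upper-quartile scaling added the calls of Aif1 and C1qb. When 1 library was left out, the members called were 10 with age and 9 to 10 against WT. P2ry12 was at -0.21 with the offset, -0.21 with block and offset, and -0.15 with the offset without WT replicate 1.

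Among the related lists at day 15, transcription factors called were 2 with the offset, 3 with the replicate block, 2 with both, and 3 to 5 with 1 library left out. Homeostatic genes called were 6 with the offset and 6 with both, and activation genes 5 with the offset, a fit in which 50.2% of all genes were called. Border macrophage genes were 3 to 5, and complement genes 2 to 3, with 1 library left out. Complement genes called were 2 with upper-quartile scaling, 2 with the replicate block, 2 with the offset and 2 with both; against WT fetuses they were 4 with the replicate block.

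Reversed values of related genes at day 15, with the offset and then with block and offset, were Il34 0.13 and 0.11 (0.051 with upper-quartile scaling), Syk 0.15 and 0.17, Spi1 0.042 and 0.091, Mef2c -0.013 and -0.013, Cd53 -0.013 and -0.016, and Cr1l -0.077 and -0.075. Leaving out 1 library gave -0.33 to 0.13 for Il34, -0.74 to 0.094 for Spi1 and -3.59 to 0.25 for C3. With age they were Syk -0.59 and -0.56 (-0.031 with upper-quartile scaling, -0.23 to 0.58 with 1 library left out), Sall1 -0.0091 with the offset, Igf1 0.77 and 0.69, and Cr1l 0.53 and 0.53.

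Pairing by replicate number was checked by correlating the fetal libraries' deviations from their group means. Same-numbered libraries were at -0.14, -0.16 and -0.14, and the others at 0.06 to 0.09. Deviations cancel out within a group, which ties these values together, so the check cannot settle whether the samples are paired. With the replicate block 5, 10 and 10 members were called at day 15, with age and against WT. Upper-quartile scaling moved the all-gene median by 0.17 at day 15 (60.8% of calls higher, against 48.1%), -0.25 with age and -0.13 against WT. Day 15 counts ran from 19 to 531 per member and library, which sets the counting error of the fetal values.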
